A study of Mus musculus with 18 samples.

Results

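The 10 genes described here carry out the assembly and supply of major histocompatibility complex (MHC) class I molecules, together with the transcriptional coactivator that serves the pathway. They were chosen by name and by no threshold on their values, with earlier results of these data known, as B2m, H2-K1, H2-D1, Tap1, Tap2, Tapbp, Psmb8, Psmb9, Psmb10 and Nlrc5. Each name matched exactly 1 of the 57180 genes in the deposited table, and all 10 were among the 14263 genes tested. They were followed in L929, a mouse fibroblast line derived from the connective tissue of a C3H mouse, in 18 libraries that fall into 6 groups of 3 cultures. Mock cells received DMSO. AOA cells received aminooxyacetate, an inhibitor of the transaminases that make aspartate, at 0.5 mM from 1 h before stimulation. AOA+Asp cells received AOA with aspartate at 20 mM. HT-DNA cells were transfected by Lipofectamine 2000 with herring testis DNA, a ligand of the cytosolic DNA sensor cGAS, at 0.5 μg/ml for 6 h, and HT-DNA+AOA and HT-DNA+AOA+Asp cells received the same DNA with those treatments. All cells were wild type and all libraries came from 1 cell line, aspartate was never given without AOA, and the sources used here do not say whether cells without HT-DNA were given the transfection reagent.

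Class I molecules display peptides from inside the cell to CD8+ T cells. Proteasomes cut proteins into peptides, and the subunits encoded by Psmb8, Psmb9 and Psmb10 replace the constitutive catalytic subunits in the immunoproteasome. The transporter formed by Tap1 and Tap2 moves the peptides into the endoplasmic reticulum, where tapasin (Tapbp) holds the transporter next to a heavy chain (H2-K1 or H2-D1) paired with β2-microglobulin (B2m). Interferons raise many of these genes through IRF1 and IRF9, and NLRC5 is recruited to class I promoters together with the RFX proteins. L929 cells carry the H-2k haplotype of C3H, so their class I alleles differ from the C57BL/6J reference, and the effect of that on read counting was not tested.

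In GENCODE vM21 (GRCm38), 7 of the 10 genes lie on chromosome 17 and 2 on chromosome 8. Tap1 (chr17:34187553-34197225), Psmb8 (chr17:34197721-34201454) and Tap2 (chr17:34203527-34216321) follow each other on the plus strand, and Psmb9 (chr17:34181987-34187764) is transcribed away from Tap1 on the minus strand. Tapbp (chr17:33915899-33929292), H2-K1 (chr17:33996017-34000347) and H2-D1 (chr17:35262730-35267499) lie on either side of that cluster. B2m is on chromosome 2 (chr2:122147686-122153083), and Nlrc5 (chr8:94434356-94527272) and Psmb10 (chr8:105935735-105938444) share chromosome 8. The build used for the deposited counts is not given in the sources used here, so these positions belong to the annotation and not to the counts.

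The bases before the start sites are shown for 5 of the genes, 1 for each kind of chain or subunit that carried letters of interferon or NF-κB signaling, with both heavy chains for comparison. RefSeq promoter windows (GRCm38.p6) were found for 8 of the 10 genes, not for Tap2 or Nlrc5. Each line reads 5′ to 3′ on the gene's own strand and ends just before the start site. Capitals mark matches, on either strand, to GAAANNGAAA (an interferon-stimulated response element, ISRE), TTCNNNGAA (an interferon gamma-activated site, GAS) or GGGNNNTNCC (an NF-κB site), where N is any base and adjacent matches to the NF-κB letters can overlap.
B2m, chr2:122147537-122147686, plus strand: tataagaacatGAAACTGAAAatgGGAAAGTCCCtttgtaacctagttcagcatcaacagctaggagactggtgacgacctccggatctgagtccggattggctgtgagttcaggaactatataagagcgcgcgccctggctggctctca
H2-K1, chr17:34000348-34000497, minus strand: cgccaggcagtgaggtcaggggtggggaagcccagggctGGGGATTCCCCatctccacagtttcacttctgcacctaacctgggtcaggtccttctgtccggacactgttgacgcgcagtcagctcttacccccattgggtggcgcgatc
H2-D1, chr17:35262894-35263093, plus strand: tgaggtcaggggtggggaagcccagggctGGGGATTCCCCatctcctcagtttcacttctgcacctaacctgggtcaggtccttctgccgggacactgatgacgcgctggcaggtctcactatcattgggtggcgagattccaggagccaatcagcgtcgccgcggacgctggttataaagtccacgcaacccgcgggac
Tap1, chr17:34187306-34187555, plus strand: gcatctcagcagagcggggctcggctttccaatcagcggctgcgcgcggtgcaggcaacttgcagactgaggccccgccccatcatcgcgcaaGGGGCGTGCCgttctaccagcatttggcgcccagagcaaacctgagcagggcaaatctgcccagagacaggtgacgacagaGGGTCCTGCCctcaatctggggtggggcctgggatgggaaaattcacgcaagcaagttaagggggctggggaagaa
Psmb8, chr17:34198045-34198194, plus strand: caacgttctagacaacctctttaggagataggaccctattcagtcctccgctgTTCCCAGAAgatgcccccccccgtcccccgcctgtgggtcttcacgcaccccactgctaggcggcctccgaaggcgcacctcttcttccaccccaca

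B2m was the only one of the 8 with the ISRE letters within 250 bases before and 50 after its start site, at -139 to -130, beside an NF-κB match at -126 to -117. The ISRE letters were present in 3.44% of all 32851 windows of that length. H2-K1 and H2-D1 shared an unbroken run of 46 bases that held the same NF-κB match. Tap1 and Psmb9 start 226 bases apart on opposite strands, so that the Tap1 line is also the Psmb9 promoter read on the other strand. In all, 5 of the 8 windows held an NF-κB match (B2m, H2-K1, H2-D1, Tap1 and Psmb9), against 17.4% of all windows, and 1 held the GAS letters (Psmb8), against 8.3%. The 5-letter CCAAT box, bound by NF-Y, was in 6 of the 8 and in 37.4% of all windows. Tap1 and Psmb9 hold the same NF-κB matches and the same CCAAT box, read on opposite strands. These counts therefore include the same bases more than once. A match to letters is a description of the sequence and does not show binding. Only exact matches to these letters were counted, so a lack of them does not show that such an element is absent.

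Libraries held 17901605 to 24057343 counts. Levels are given below as CPM, counts relative to library size after TMM scaling, with the SD of 3 cultures. They describe the whole culture, in which fewer cells of a type and less RNA per cell cannot be told apart. The label was checked against markers. Vim was at 2300 to 2966 CPM and Col1a1 at 117 to 159 CPM, but of 10 fibroblast markers Thy1, Dcn and Lum were at or near 0 (at most 0.168 CPM). Of 9 leukocyte markers, 3 (Ptprc, Adgre1 and Cd3e) had no count in any library, while Cd68 was at 110 to 155 CPM. The summed leukocyte markers ran from 111 to 137 CPM outside the HT-DNA+AOA group and from 139 to 156 CPM in it, and their part in the results below was not tested. Epithelial and endothelial markers summed to at most 0.679 CPM in any library.

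One feature of these libraries bears on every result below. The libraries differed in how counts depended on transcript length, measured for 11936 genes as the slope of a library's log2 CPM, relative to the mean of all libraries, on each doubling of length. The slope was 0.12, 0.108 and 0.0532 in the Mock libraries and 0.0217, -0.0387 and -0.0629 in the AOA libraries. It was 0.12, 0.0685 and 0.134 with AOA+Asp and -0.151, -0.0588 and -0.134 with HT-DNA. In HT-DNA+AOA it ran from 0.0358 in replicate 1 through -0.136 in replicate 2 to -0.237 in replicate 3, and in HT-DNA+AOA+Asp it was 0.0552, 0.0583 and 0.0437. Short transcripts were thus relatively high in the HT-DNA libraries and in replicates 2 and 3 of both AOA and HT-DNA+AOA. The members run from 860 bases (B2m) to 7578 bases (Nlrc5), and 6 of the 10 are no longer than the median tested gene with a length, 2790 bases. For this reason each comparison is given as fitted and again after each library's trend on length and GC content was removed within the same edgeR model, an alternative chosen after the data were seen. Whether the trend is technical or part of the response was not tested.

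**Figure D1:**
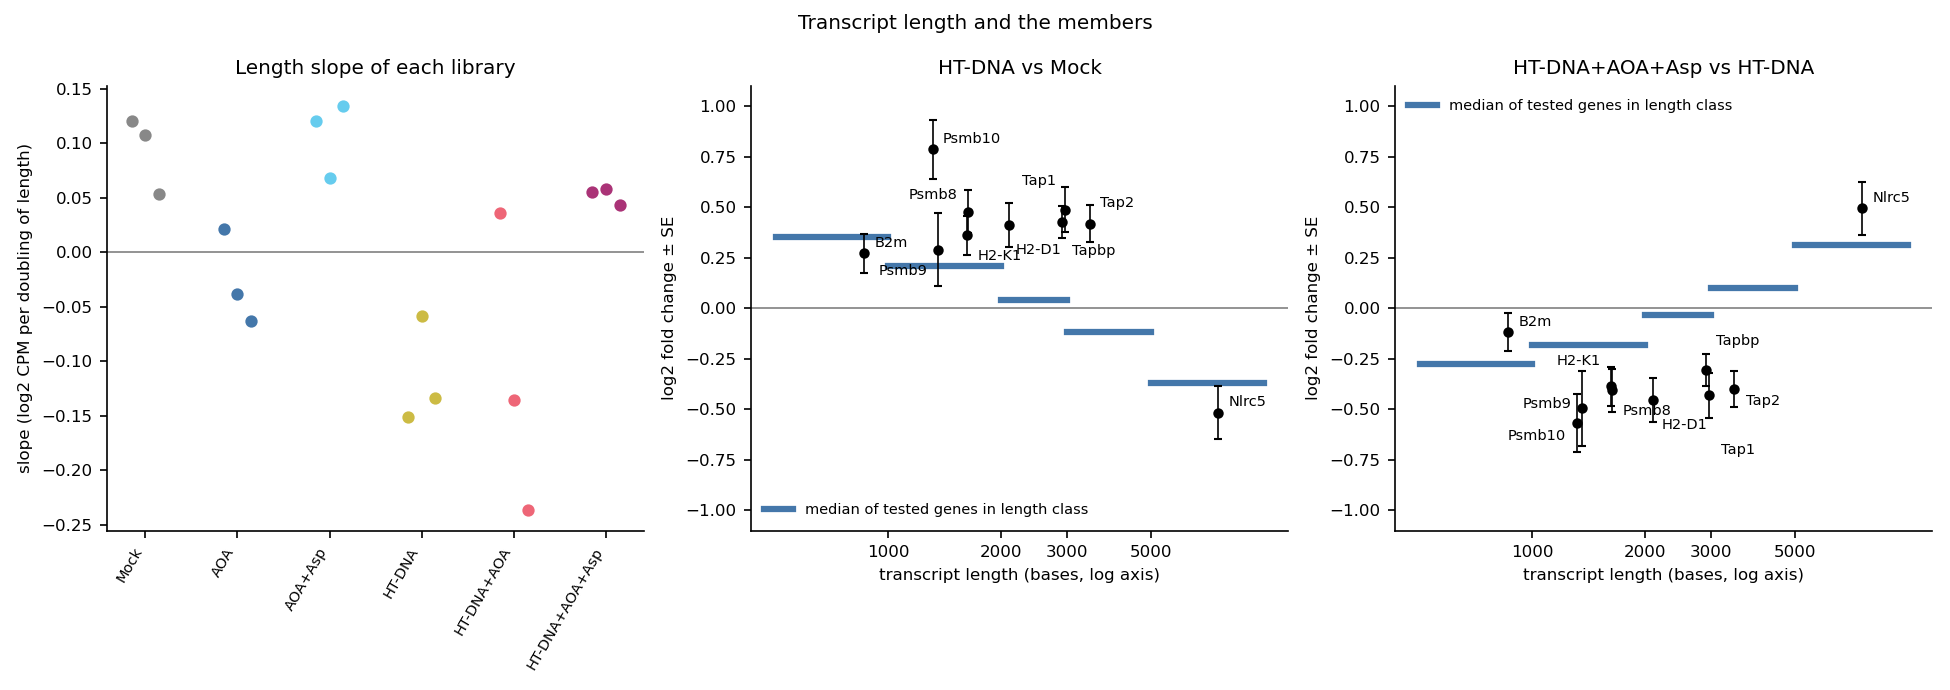
Left, slope of log2 CPM on transcript length for each library (y, log2 CPM per doubling of length; points, 3 cultures of each of 6 groups). Middle and right, log2 fold change ± SE of the 10 members (y) against transcript length in bases (x, log axis), with blue bars for the median of the tested genes in 5 length classes; in HT-DNA against Mock the class medians fell from 0.35 to -0.37, and in HT-DNA+AOA+Asp against HT-DNA they rose from -0.27 to 0.31.

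Among the antigen-presenting chains, B2m and H2-K1 were the most abundant members per length in Mock cells, at 417 ± 38.0 and 414 ± 17.0 CPM per kb of transcript (SD, n = 3). They did not differ beyond their spread. H2-D1 followed at 132 ± 8.80, then Tapbp at 48.1 ± 2.93, Psmb8 at 17.5 ± 0.342, Tap2 at 13.9 ± 0.654 and Tap1 at 10.4 ± 0.513 CPM per kb. The lowest were Psmb10 at 5.92 ± 0.104, Nlrc5 at 5.15 ± 0.384 and Psmb9 at 3.56 ± 0.665 CPM per kb, and the last pair of these differed by more than either SD. In HT-DNA+AOA cells Tap1 stood above Tap2, at 23.3 ± 4.23 against 15.5 ± 1.93 CPM per kb, the reverse of their order in Mock.

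The heavy chain H2-K1 was at 667, 645 and 700 CPM in the Mock cultures, at 845, 936 and 906 with AOA, and at 592, 690 and 630 with AOA+Asp. With HT-DNA it was at 847, 830 and 906 CPM, with HT-DNA+AOA at 822, 941 and 1182, and with HT-DNA+AOA+Asp at 656, 664 and 657. All AOA and HT-DNA cultures thus lay above all Mock cultures, the HT-DNA+AOA cultures overlapped those with HT-DNA, and both groups with aspartate lay near Mock. H2-D1, the second classical heavy chain measured here, was at 266, 268 and 299 CPM in Mock, at 352, 405 and 403 with AOA, and at 234, 268 and 248 with AOA+Asp. It was at 375, 354 and 378 CPM with HT-DNA, at 327, 404 and 508 with HT-DNA+AOA, and at 266, 271 and 271 with HT-DNA+AOA+Asp. H2-D1 followed H2-K1, with Pearson's r of 0.991 over the 18 libraries, and H2-K1 was 232% to 254% of H2-D1 by group mean. Of the 31-base words of the H2-K1 transcripts, 11.1% also occur in H2-D1 and 22.8% in some other gene, so how reads were split between the chains is uncertain.

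B2m, the invariant light chain, was at 336, 344 and 396 CPM in Mock, at 358, 397 and 401 with AOA, and at 411, 411 and 392 with AOA+Asp. With HT-DNA it was at 420, 399 and 480 CPM, with HT-DNA+AOA at 446, 487 and 601, and with HT-DNA+AOA+Asp at 402, 395 and 400. The HT-DNA cultures lay above all Mock cultures by a narrow margin, and the AOA cultures overlapped Mock. By CPM the ratio of heavy to light chain differed between groups, with H2-D1 at 77.4% ± 1.86 of B2m in Mock and at 100% ± 1.82 with AOA, and at 61.9% ± 4.37 with AOA+Asp. It was 85.5% ± 5.98 with HT-DNA, 80.4% ± 6.12 with HT-DNA+AOA and 67.5% ± 1.21 with HT-DNA+AOA+Asp. These chains differ in length (B2m 860 and H2-D1 2102 bases), so the ratio can vary with a library's length slope. With the trend removed, AOA against Mock was 0.45 for H2-D1 and -0.04 for B2m on the log2 scale. AOA+Asp against Mock was then -0.04 for H2-D1 and 0.04 for B2m, and neither was called. HT-DNA+AOA+Asp against HT-DNA was -0.14 for H2-D1 and -0.11 for B2m, also not called.

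Of the transporter subunits, Tap1 was at 31.9, 31.3 and 29.0 CPM in Mock, at 37.9, 40.7 and 40.0 with AOA, and at 21.8, 27.5 and 28.1 with AOA+Asp. It reached 41.5, 40.7 and 47.0 CPM with HT-DNA and 66.6, 57.6 and 82.3 with HT-DNA+AOA, and was at 31.2, 33.4 and 31.3 with HT-DNA+AOA+Asp. All 3 HT-DNA+AOA cultures exceeded every other culture in the series. Its partner Tap2 was at 45.7, 50.2 and 47.6 CPM in Mock, at 43.9, 47.3 and 48.0 with AOA, and at 41.2, 49.1 and 48.2 with AOA+Asp. With HT-DNA it was at 63.5, 60.3 and 68.0 CPM, with HT-DNA+AOA at 47.8, 51.8 and 60.8, and with HT-DNA+AOA+Asp at 45.9, 51.8 and 47.8. Tap2 was thus highest by mean with HT-DNA alone, although 1 HT-DNA+AOA culture overlapped that group. Within a library Tap1 was 64.4% ± 4.76 of Tap2 by CPM in Mock, 85.2% ± 1.72 with AOA and 55.8% ± 2.75 with AOA+Asp. The share was 67.4% ± 1.92 with HT-DNA, 129% ± 15.1 with HT-DNA+AOA (139%, 111% and 135% in the 3 cultures) and 66.01% ± 1.92 with HT-DNA+AOA+Asp. HT-DNA alone left this ratio within the Mock range, while both groups given AOA without aspartate lay above every other culture. Tap1 and Tap2 have similar lengths (2953 and 3442 bases) and GC contents (57.3% and 56.9%), and they share about 1% of their 31-base words.

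**Figure D2:**
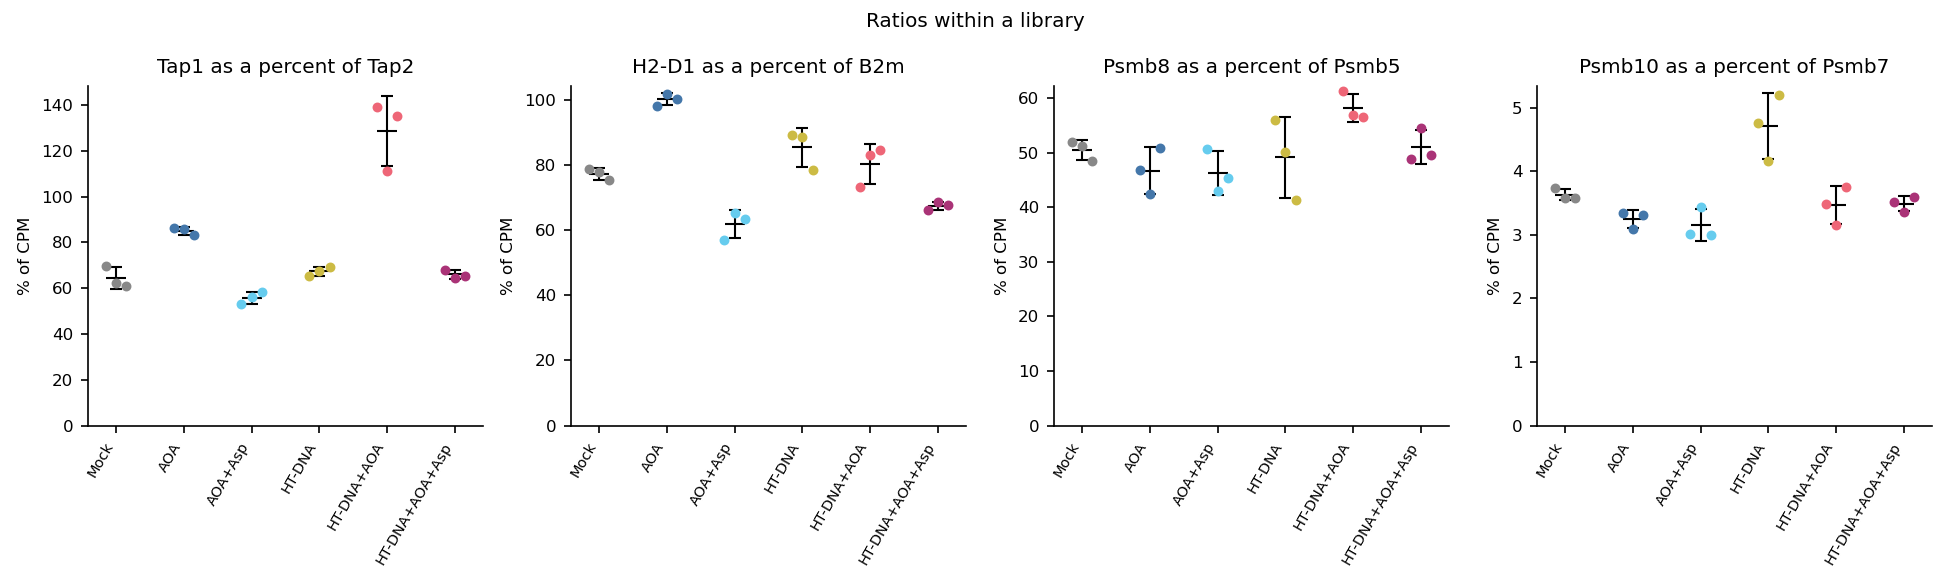
CPM of 1 gene as a percentage of another in the same library (y, %), by group (x); points are the 3 cultures, bars the mean ± SD, and the axes start at 0. Tap1 exceeded Tap2 in all 3 HT-DNA+AOA cultures (111% to 139%), and Psmb10 was highest relative to Psmb7 with HT-DNA alone (4.71%).

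Tapbp, the bridge between transporter and heavy chain, was at 141, 130 and 147 CPM in Mock, at 142, 148 and 147 with AOA, and at 114, 128 and 127 with AOA+Asp. It was at 188, 186 and 188 CPM with HT-DNA, at 200, 199 and 250 with HT-DNA+AOA, and at 155, 150 and 149 with HT-DNA+AOA+Asp. Every HT-DNA+AOA culture lay above every HT-DNA culture, and every culture of both groups above Mock.

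Of the immunoproteasome subunits, Psmb8 was at 28.3, 28.2 and 29.2 CPM in Mock, at 28.0, 29.0 and 33.2 with AOA, and at 24.5, 25.7 and 23.8 with AOA+Asp. It was at 42.8, 36.6 and 39.9 CPM with HT-DNA, at 36.5, 42.5 and 53.4 with HT-DNA+AOA, and at 29.8, 30.4 and 29.7 with HT-DNA+AOA+Asp. HT-DNA set Psmb8 apart from Mock, and AOA did not. Psmb10 was at 7.62, 7.89 and 7.78 CPM in Mock, at 8.95, 9.10 and 10.1 with AOA, and at 6.998, 8.66 and 6.78 with AOA+Asp. It was at 13.95, 11.0 and 15.2 CPM with HT-DNA, at 8.57, 10.3 and 13.5 with HT-DNA+AOA, and at 8.90, 8.61 and 9.61 with HT-DNA+AOA+Asp. Like Tap2, and unlike Psmb8, it was highest by mean with HT-DNA alone. Psmb9 was the rarest member, with 71 to 168 counts in a library, and was at 4.99, 3.83 and 5.60 CPM in Mock, at 5.80, 5.84 and 6.34 with AOA, and at 3.31, 4.21 and 3.96 with AOA+Asp. It was at 5.71, 6.11 and 5.81 CPM with HT-DNA, at 5.54, 7.19 and 10.0 with HT-DNA+AOA, and at 3.68, 4.23 and 4.59 with HT-DNA+AOA+Asp. The HT-DNA+AOA cultures were widely spread for Psmb9, and the lowest of them lay below all HT-DNA cultures.

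The immunoproteasome subunits were read against the constitutive subunit that each replaces. Psmb8 was 50.6% ± 1.83 of Psmb5 by CPM in Mock, 49.2% ± 7.37 with HT-DNA and 58.2% ± 2.61 with HT-DNA+AOA, although 71.7% of the 31-base words of Psmb5 occur in other genes, mostly pseudogene copies. Psmb10 was 3.63% ± 0.0858 of Psmb7 in Mock, 4.71% ± 0.519 with HT-DNA and 3.46% ± 0.3004 with HT-DNA+AOA. Psmb9 was 3.37% ± 0.519 of Psmb6 in Mock, 3.04% ± 0.284 with HT-DNA and 4.07% ± 0.500 with HT-DNA+AOA. With HT-DNA all 3 constitutive subunits rose too, by 0.41 to 0.54 on the log2 scale in the edgeR fit, so of the 3 ratios that of Psmb10 alone left the Mock range in every HT-DNA culture.

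Nlrc5, the class I coactivator, had a pattern of its own. It was at 42.1, 38.8 and 36.3 CPM in Mock, at 61.6, 49.8 and 47.4 with AOA, and at 32.6, 33.5 and 36.1 with AOA+Asp. It was at 28.8, 27.1 and 26.1 CPM with HT-DNA, at 76.9, 58.4 and 48.8 with HT-DNA+AOA, and at 40.4, 38.3 and 36.7 with HT-DNA+AOA+Asp. HT-DNA cultures were the lowest of all, and HT-DNA+AOA cultures lay above all cultures except those with AOA alone. In the HT-DNA+AOA group replicate 1 was the highest for Nlrc5 and replicate 3 the lowest, whereas replicate 3 was the highest for the other 9 members. Replicate 3 also had the steepest length slope. That group was the least alike internally, with a chi-square per degree of freedom between cultures of 17.3 to 63.6 against 2.74 to 12.6 in the other groups.

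**Figure D3:**
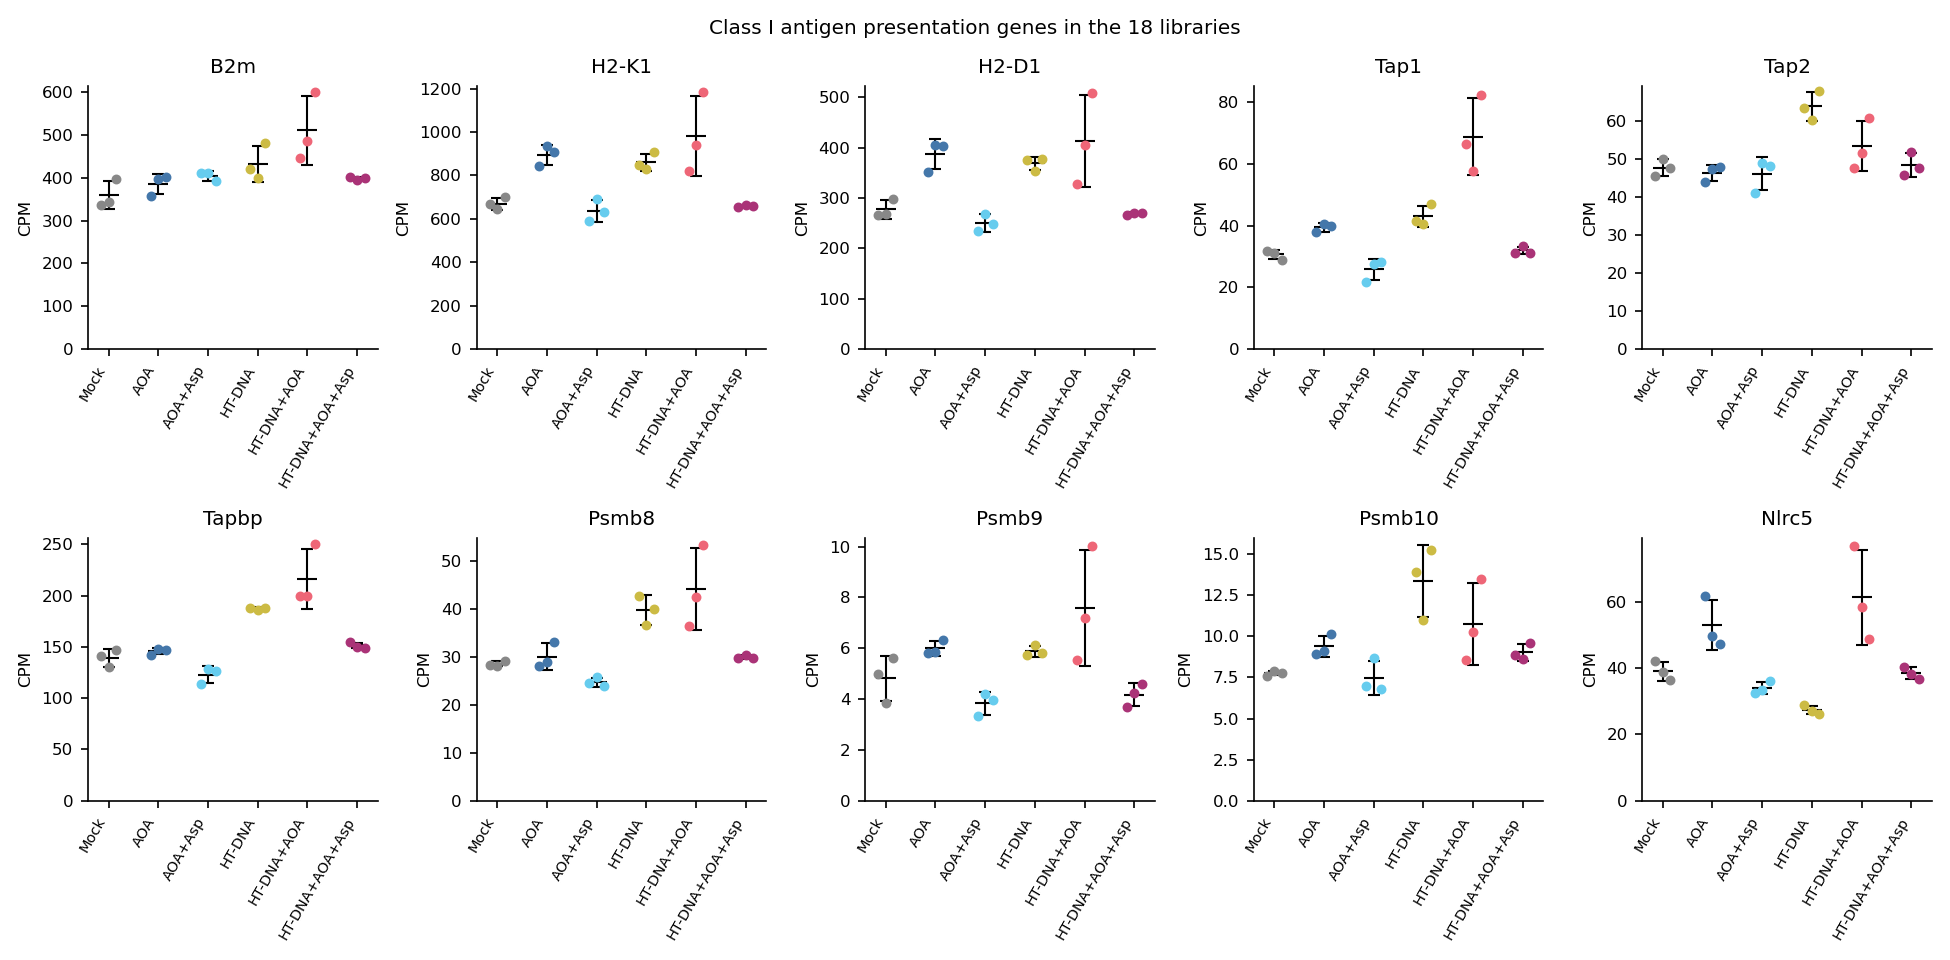
Levels of the 10 members (y, CPM, axes from 0) in the 6 groups (x); points are the 3 cultures and bars the mean ± SD. Tap1 was highest in the 3 HT-DNA+AOA cultures (57.6 to 82.3 CPM), Tap2 and Psmb10 by mean with HT-DNA alone, and Nlrc5 was lowest with HT-DNA alone (26.1 to 28.8 CPM).

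Across the 18 libraries, Psmb8, Tap1, Tapbp and H2-K1 were most like the mean of the other members (Pearson's r of 0.937, 0.932, 0.928 and 0.927 on log2 CPM), followed by H2-D1 at 0.909 and Psmb9 at 0.891. Psmb10 (0.774), B2m (0.741) and Tap2 (0.612) were less alike, and Nlrc5 stood apart at 0.15, with -0.437 against Tap2. These values describe libraries that share treatments and length slopes. Among 12747 other genes with a group mean of at least 1 CPM, those most like the members' mean profile were Ctsz (r = 0.978), Med8 (0.976), Shisa5 (0.975), Selenow (0.973) and Pop7 (0.971), all with transcripts of 736 to 1834 bases. Ifitm3, an interferon-induced gene of 678 bases, was the nearest to both Tapbp (0.971) and Psmb8 (0.972), and Srpk1, of 4653 bases, was the nearest to Nlrc5 (0.96). For the other members the nearest were Uqcrq (H2-D1, 0.989), Psmd8 (H2-K1, 0.985), Dohh (Psmb10, 0.968) and Shisa5 (Tap1, 0.959). Pithd1 (0.955) was the nearest to Tap2, Fbxo6 (0.94) to Psmb9 and C030017G13Rik (0.889) to B2m.

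HT-DNA against Mock asked what HT-DNA transfection did without AOA. Whether Mock cells were given the transfection reagent is not stated, so effects of the DNA and of the reagent cannot be told apart. By edgeR's quasi-likelihood test over all 14263 genes, with a Benjamini-Hochberg adjusted p under 0.05 as the call, 8 of the 10 members were higher and Nlrc5 was lower. The background is wide, since 24.2% of all tested genes were called higher and 24% lower. Psmb10 rose most, by 0.79 ± 0.15 on the log2 scale (SE), or 1.73-fold. Tap1 rose 1.40-fold, Psmb8 1.39-fold, Tapbp 1.34-fold, Tap2 1.34-fold, H2-D1 1.33-fold, H2-K1 1.28-fold and B2m 1.21-fold, with edgeR adjusted p of 3.38e-04 to 0.0257. Nlrc5 fell by 0.52 ± 0.13 on the log2 scale (edgeR adjusted p = 0.00326), and Psmb9 was at 0.29 ± 0.18 (edgeR adjusted p = 0.193). The median log2 fold change of the members was 0.42, against -0.0076 over all tested genes.

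The genes were also ordered by length in this comparison. The median tested gene of up to 1000 bases changed by 0.35 on the log2 scale and that of over 5000 bases by -0.37, so B2m (0.27) and Nlrc5 (-0.52) lay near the median of their length class. With the trend removed, 5 members were higher (background 22.6%) and 1 lower (background 19.8%). Psmb10 (0.38 ± 0.096), Tap1 (0.32 ± 0.079), Tap2 (0.31 ± 0.062), Tapbp (0.26 ± 0.048) and H2-D1 (0.15 ± 0.058) remained higher and Nlrc5 lower (-0.20 ± 0.079). H2-K1, at 0.01 ± 0.039, B2m, at 0.10 ± 0.068, and Psmb8, at 0.14 ± 0.061, then missed the threshold, and the estimate for Psmb9 turned to -0.08 ± 0.14. Single libraries decided some calls. As fitted, B2m missed the threshold without Mock replicate 1 or 2 or HT-DNA replicate 3 (0.19 to 0.24). With the trend removed, Tap1, Tap2, Tapbp and Psmb10 were called in all 6 fits that left out 1 library, H2-D1 only without Mock replicate 3 and Nlrc5 only without HT-DNA replicate 1.

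AOA against Mock asked what AOA did without HT-DNA. H2-D1 rose by 0.48 ± 0.11 on the log2 scale (1.40-fold), Nlrc5 by 0.44 ± 0.13 (1.36-fold), H2-K1 by 0.42 ± 0.097 (1.34-fold) and Tap1 by 0.36 ± 0.11 (1.29-fold), with edgeR adjusted p of 0.00154 to 0.0132. These 4 calls, all higher, compare with 22.4% of all tested genes called higher and 23.3% lower. The light chain B2m (0.10 ± 0.096), Tap2 (-0.04 ± 0.091), Tapbp (0.07 ± 0.079) and Psmb8 (0.07 ± 0.11) were not called, and the groups overlapped for each of them. Psmb9 (0.32 ± 0.18) and Psmb10 (0.27 ± 0.15) were not called although their groups did not overlap. The median of the members was 0.29, against 0.015 over all tested genes.

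With the length and GC trend removed the same 4 genes were higher, with Nlrc5 at 0.60 ± 0.076, H2-D1 at 0.45 ± 0.058, Tap1 at 0.42 ± 0.080 and H2-K1 at 0.34 ± 0.039, and Tapbp was added at 0.12 ± 0.048, a call made in 2 of the 6 fits that left out 1 library, those without Mock replicate 3 or AOA replicate 1. That made 5 higher against a background of 27.5%, while 24.7% of all tested genes were lower. In this fit the estimates of B2m, Tap2 and Psmb8 turned sign, at -0.04, 0.03 and -0.01, without being called in either fit. Scaling by library totals in place of TMM left 2 calls, H2-K1 and H2-D1. As fitted, Tap1 missed the threshold without Mock replicate 3 (0.32) and Nlrc5 without AOA replicate 1 (0.32).

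HT-DNA and AOA, each alone, therefore gave different lists of called members, although both comparisons share the Mock libraries. As fitted, Tap2, Tapbp, Psmb8, Psmb10 and B2m were called with HT-DNA and not with AOA, and Nlrc5 was called in opposite directions. With the trend removed, only Tap2 and Psmb10 were called with HT-DNA and not with AOA. Tapbp was then called with both, B2m and Psmb8 with neither and H2-K1 with AOA only. Nlrc5 was still called in opposite directions. The difference of these effects was not tested as such.

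AOA+Asp against AOA asked what added aspartate did to AOA-treated cells. All 7 members called were lower, against 23.5% of all tested genes called higher and 22.8% lower. Psmb9 fell by 0.64 ± 0.19, Nlrc5 by 0.64 ± 0.13, H2-D1 by 0.63 ± 0.11, Tap1 by 0.61 ± 0.11 and H2-K1 by 0.49 ± 0.097 on the log2 scale, with edgeR adjusted p of 1.5e-04 to 0.00819. Psmb8 fell by 0.28 ± 0.11 and Tapbp by 0.25 ± 0.080 (edgeR adjusted p = 0.0387 and 0.0161). B2m (0.07), Tap2 (-0.01) and Psmb10 (-0.33) were not called, and the median of the members was -0.41 against -0.0091 over all tested genes. The 4 genes called higher with AOA alone were all among the 7.

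After removal of the trend 6 members were lower (background 25.5%, with 24.8% of all tested genes higher). Nlrc5 fell by 0.78 ± 0.077, Tap1 by 0.56 ± 0.081, H2-D1 by 0.49 ± 0.058, Psmb9 by 0.42 ± 0.15, H2-K1 by 0.30 ± 0.039 and Tapbp by 0.19 ± 0.049. Psmb8, at -0.09 ± 0.064, was the call that was lost, and as fitted it also missed the threshold in 5 of the 6 fits that left out 1 library. Tapbp as fitted missed it without AOA+Asp replicate 1, and Psmb9 with the trend removed missed it without AOA replicate 1 or 3 or AOA+Asp replicate 1.

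AOA+Asp against Mock set the aspartate-supplemented cells beside those given DMSO. By edgeR's quasi-likelihood test 0 of the 10 members were called, 2 had an unadjusted p under 0.05, and DESeq2 also called 0. Few genes differed at all, with 2.52% of tested genes called higher and 3.95% lower. The largest estimates were -0.33 ± 0.19 for Psmb9 and -0.25 ± 0.11 for Tap1, and the others ran from -0.21 to 0.17. A model of these 6 libraries alone called Tap1, Tapbp and Psmb8 lower. With the trend removed edgeR's test called 0 and 1 had an unadjusted p under 0.05, against backgrounds of 6.62% higher and 5.72% lower.

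HT-DNA+AOA against HT-DNA asked what AOA added to DNA stimulation. Nlrc5 rose 2.25-fold (log2 1.17 ± 0.13, edgeR adjusted p = 5.32e-07) and Tap1 1.60-fold (0.67 ± 0.11, edgeR adjusted p = 5.75e-05). B2m (0.24 ± 0.096) and Tapbp (0.21 ± 0.079) also rose, and Tap2 fell by 0.26 ± 0.090, with edgeR adjusted p of 0.0491, 0.0375 and 0.0247. The groups overlapped for B2m and Tap2. As fitted, then, 4 members were higher and 1 lower, against 22.8% and 22.7% of all tested genes, and the median of the members was 0.20 against 0.0242. H2-K1 (0.19), H2-D1 (0.16), Psmb8 (0.15), Psmb9 (0.36) and Psmb10 (-0.32) were not called.

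These counts leaned on single libraries of the HT-DNA+AOA group, whose length slopes differed most. Without its replicate 1, 8 members were called, all higher. Without replicate 2, 3 were called, and without replicate 3, 4 were called, 2 in each direction. Without HT-DNA replicate 1 or 3, 3 were called. With the length and GC trend removed, 7 members were higher (background 25.9%) and no call was lower in edgeR's test, with 26.6% of all tested genes lower. Those 7 were Nlrc5 (1.18 ± 0.078), Tap1 (0.92 ± 0.076), Psmb9 (0.52 ± 0.14), Tapbp (0.45 ± 0.048), H2-K1 (0.40 ± 0.039), Psmb8 (0.35 ± 0.060) and H2-D1 (0.34 ± 0.058). In that fit the count stayed at 7 when any 1 of the 6 libraries was left out, and the 7 were the same genes each time. Tap2 (-0.04 ± 0.062), B2m (0.04 ± 0.068) and Psmb10 (-0.11 ± 0.095) were not called there.

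**Figure D4:**
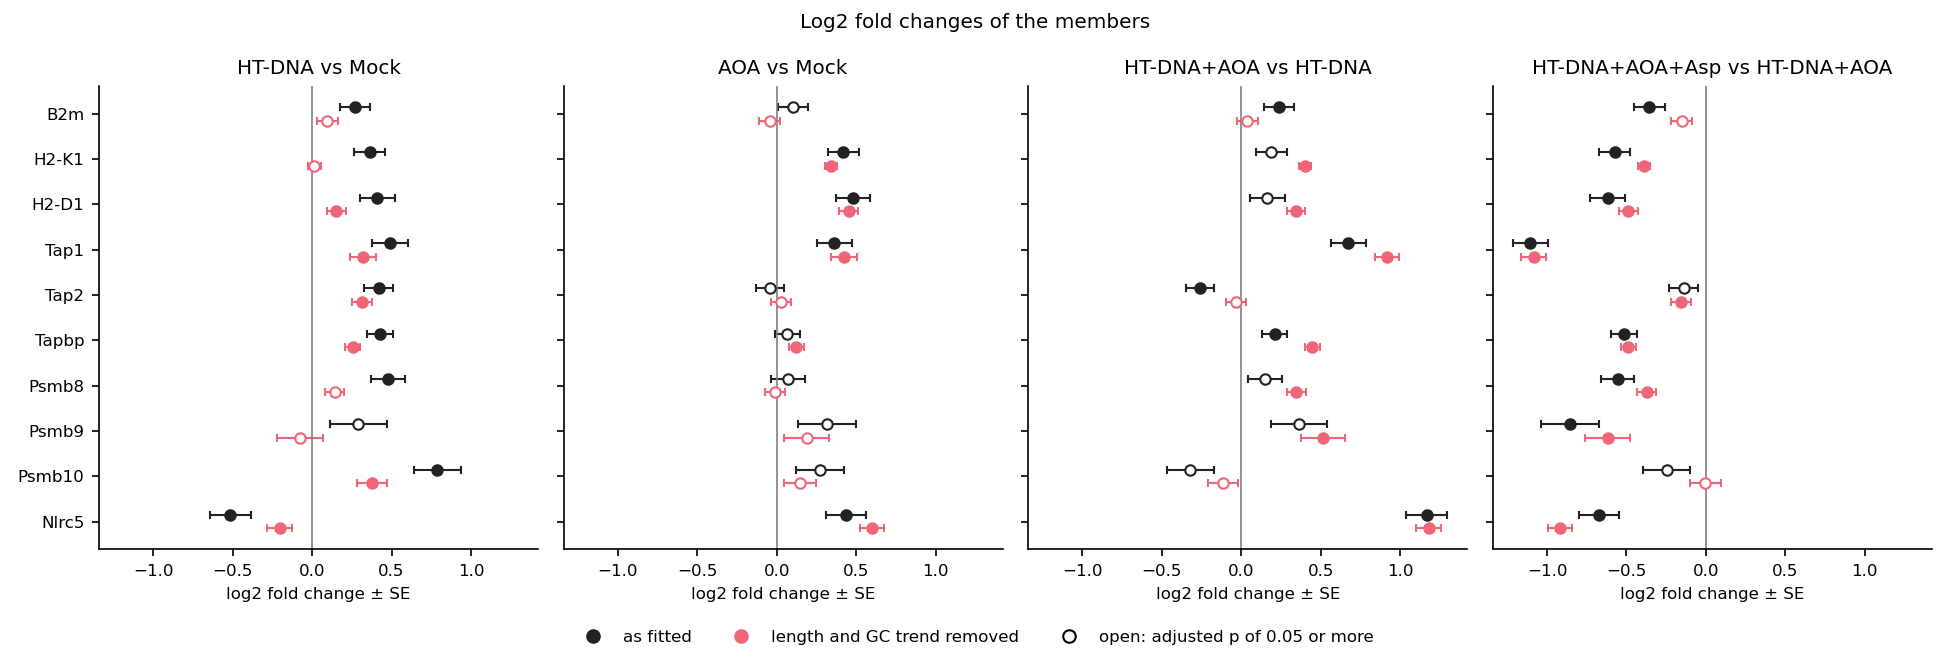
Log2 fold change ± SE (x) of the 10 members (y) in 4 comparisons, as fitted (black) and with each library's length and GC trend removed (red); open points have an adjusted p of 0.05 or more. Removing the trend moved H2-K1 with HT-DNA from 0.36 to 0.01 and, in HT-DNA+AOA against HT-DNA, from 0.19 to 0.40, while Tap1 and Nlrc5 were called in every panel in both fits.

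The difference between the AOA effects with and without HT-DNA was tested directly as an interaction. As fitted, Nlrc5 was the only member called, higher by 0.73 ± 0.18 on the log2 scale (edgeR adjusted p = 0.0124), against 7.23% of all tested genes higher and 8.26% lower. Tap1 was at 0.31 ± 0.16 (edgeR adjusted p = 0.181) and Psmb10 at -0.59 ± 0.21 (edgeR adjusted p = 0.0608). Without HT-DNA+AOA replicate 3, H2-K1, H2-D1, Tap2 and Psmb10 were called lower beside Nlrc5. Without HT-DNA replicate 2, 2 members were called. Once the trend was removed 4 members were called, all higher, namely Nlrc5 (0.58 ± 0.11), Tap1 (0.49 ± 0.11), Psmb8 (0.35 ± 0.087) and Tapbp (0.32 ± 0.068). The backgrounds were 7.08% higher and 11.6% lower, and the same 4 genes were called when any 1 of the 12 libraries was left out. H2-K1 and H2-D1, which rose with AOA alone, were at 0.06 ± 0.055 and -0.11 ± 0.082 with the trend removed, and at -0.23 ± 0.14 and -0.32 ± 0.16 as fitted. In a model of only the 12 libraries compared, with the trend kept, Nlrc5 was at 0.72 and missed the threshold.

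HT-DNA+AOA+Asp against HT-DNA+AOA asked what aspartate did to the combined response. All 8 members called were lower, against 23.7% of all tested genes higher and 23.9% lower. Tap1 fell by 1.104 ± 0.11 on the log2 scale (edgeR adjusted p = 2.8e-07), to 0.465 of its level without aspartate. Psmb9 fell by 0.86 ± 0.18, Nlrc5 by 0.67 ± 0.13, H2-D1 by 0.62 ± 0.11, H2-K1 by 0.58 ± 0.097, Psmb8 by 0.56 ± 0.11, Tapbp by 0.52 ± 0.079 and B2m by 0.36 ± 0.096, with edgeR adjusted p of 3.59e-05 to 0.0051. Tap2 (-0.14) and Psmb10 (-0.25) were not called. The median of the members was -0.57, against -0.0115 over all tested genes. After removal of the trend 8 members were again lower (background 25.7%, with 25% higher), led by Tap1 (-1.08 ± 0.078) and Nlrc5 (-0.92 ± 0.076). Tap2, at -0.16 ± 0.063, took the place of B2m, at -0.15 ± 0.068, but each of these was called in 2 of the 6 fits that left out 1 library, and Psmb10 was at 0.00 ± 0.099.

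HT-DNA+AOA+Asp against HT-DNA compared DNA stimulation with and without the pair of AOA and aspartate, and here the fits parted most. As fitted, 8 members were lower, by 0.31 (Tapbp) to 0.57 (Psmb10) on the log2 scale, and Nlrc5 was higher by 0.49 ± 0.13, with edgeR adjusted p of 0.00186 to 0.034. Among all tested genes 23.2% were called higher and 23.5% lower. The length classes moved the same way, from a median of -0.27 for transcripts of up to 1000 bases to 0.31 for those of over 5000. Once the trend was removed 1 member was higher (Nlrc5, 0.26 ± 0.079, background 16.8%) and 1 lower (Tap2, -0.19 ± 0.062, background 19.7%). H2-K1 then changed sign, from -0.39 ± 0.097 to 0.01 ± 0.039, and Psmb10 moved from -0.57 to -0.12. In that fit 0 to 2 members were called when 1 library was left out, and 0 without HT-DNA replicate 3 or HT-DNA+AOA+Asp replicate 1. As fitted, Psmb9 missed the threshold in 5 of the 6 fits that left out 1 library.

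Across the comparisons that bear on AOA, Tap1, H2-K1, H2-D1 and Nlrc5 were thus higher with AOA and lower with added aspartate whether or not the trend was removed, except that H2-K1 and H2-D1 were called with HT-DNA+AOA against HT-DNA only after its removal. Tap2 and Psmb10 were not called higher in AOA against Mock or in HT-DNA+AOA against HT-DNA in either fit. These comparisons share libraries, so their calls are not independent of each other.

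The other class I and class I-like chains were read from a list of 16 genes, of which 14 were in the table and 11 were tested. With HT-DNA+AOA against HT-DNA 7 of the 11 were higher, with a median of 0.51 on the log2 scale, and with added aspartate 8 of the 11 were lower, with a median of -0.73. Of all tested genes 22.8% were higher in the first of these comparisons and 23.9% lower in the second. H2-Q4 was at 55.5, 55.1 and 57.9 CPM in Mock, at 84.1, 87.1 and 90.2 with AOA, and at 56.8, 55.7 and 60.4 with HT-DNA. It was at 110, 105 and 118 CPM with HT-DNA+AOA and at 49.7, 49.0 and 50.8 with HT-DNA+AOA+Asp. It rose by 0.63 on the log2 scale with AOA alone and was at 0.04 with HT-DNA alone (-0.27 and lower with the trend removed). H2-T24 had another pattern, at 1.23, 0.811 and 1.19 CPM in Mock, at 0.724, 1.03 and 1.69 with AOA, and at 3.69, 3.36 and 4.63 with HT-DNA. It rose by 1.85 on the log2 scale with HT-DNA and by a further 1.29 with AOA on top. H2-T23, the nonclassical chain Qa-1, rose by 0.62 with HT-DNA and by 0.51 with AOA on top. These chains share 24.5% (H2-T23) to 51% (H2-T22) of their 31-base words with other genes where this was computed, so single members of the family are uncertain. Mr1, which presents vitamin B metabolites, fell by 1.35 with HT-DNA and by 1.11 with AOA, each against Mock. With HT-DNA+AOA against HT-DNA no listed chain was called lower, and Mr1 was at means of 1.76 CPM with HT-DNA and 2.43 with HT-DNA+AOA.

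Among 15 regulators of class I transcription, of which 14 were tested, 7 were higher and 3 lower with HT-DNA+AOA against HT-DNA, against 22.8% and 22.7% of all tested genes. Irf9, the DNA-binding part of the factor that carries type I interferon signals, was at 16.4, 15.2 and 17.4 CPM in Mock, at 28.4, 25.1 and 26.3 with HT-DNA, and at 71.05, 67.6 and 75.8 with HT-DNA+AOA. It was at 16.8, 16.8 and 15.7 CPM with AOA alone and at 27.5, 26.4 and 23.15 with HT-DNA+AOA+Asp, so the HT-DNA+AOA cultures stood above all others. The rise with AOA in HT-DNA cells was 1.42 on the log2 scale, and Stat2 (0.99), Rfx5 (0.67) and Irf1 (0.66) also rose. Rfx5 rose only to near its Mock level, with means of 8.36 CPM in Mock, 5.44 with HT-DNA and 8.67 with HT-DNA+AOA. Rfx5 was not lower with HT-DNA+AOA+Asp, at a mean of 9.13 CPM. The other RFX genes listed went the other way by mean between HT-DNA and HT-DNA+AOA, Rfxap from 15.6 to 10.4 CPM and Rfxank from 4.78 to 3.19. With the trend removed 8 regulators were higher and 3 lower in that comparison, against 25.9% and 26.6% of all tested genes. Those 3 were Irf2 (-0.33), Nfyc (-0.51) and Creb1 (-0.41), while Rfxap (-0.24) and Rfxank (-0.42) were not called. Irf1, an activator of class I genes, and Stat2 fell with AOA alone, by 0.71 and 0.89, in the comparison in which H2-K1, H2-D1, Tap1 and Nlrc5 rose. With AOA alone 1 of the 14 was higher (Nfkb1, 0.24) and 6 were lower, against 22.4% and 23.3% of all tested genes. After removal of the trend 2 were higher and 7 lower. Ciita, the class II counterpart of Nlrc5, was not tested. Ifnb1 had no counts in 14 of the 15 libraries outside the HT-DNA+AOA group, reached 0.313, 0.205 and 0.119 CPM in that group, and was too low to test.

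**Figure D5:**
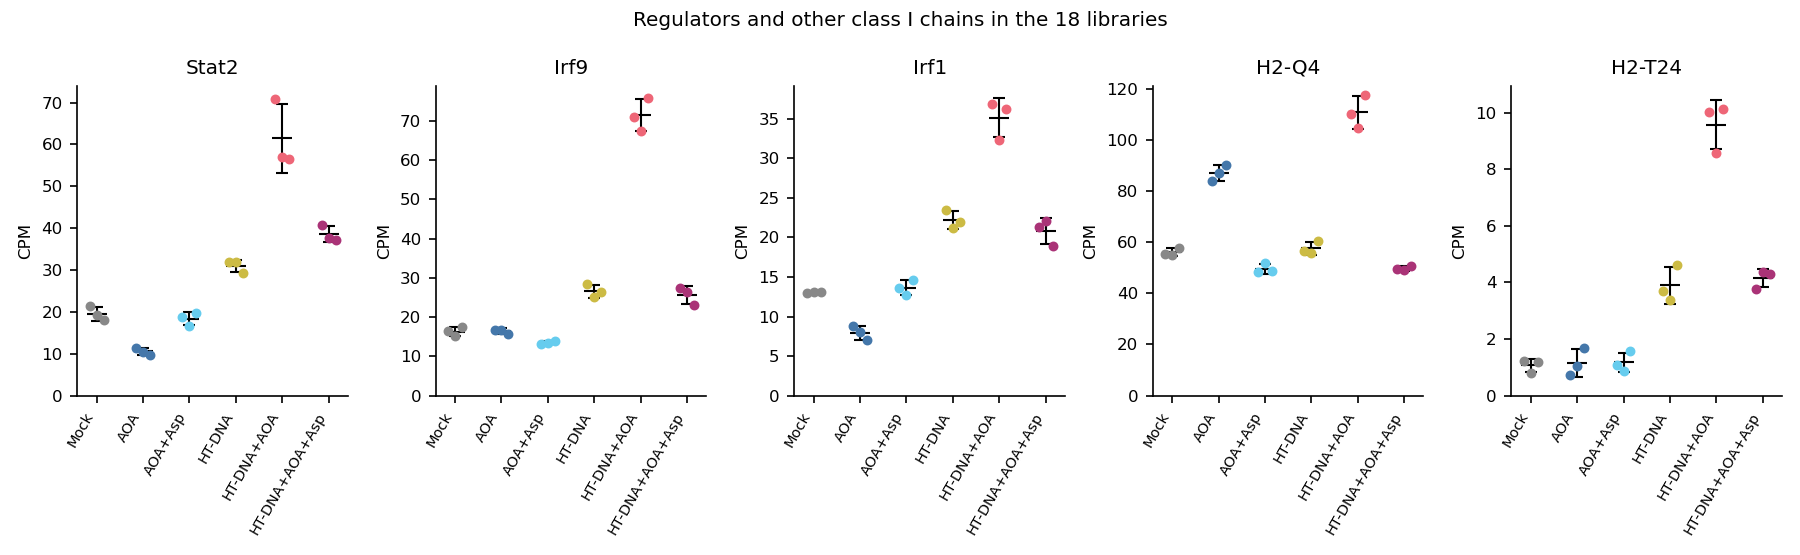
Levels of 3 regulators and 2 other class I chains (y, CPM, axes from 0) in the 6 groups (x); points are the 3 cultures and bars the mean ± SD. Stat2, Irf9 and Irf1 were highest in all 3 HT-DNA+AOA cultures, Irf1 and Stat2 were lowest with AOA alone, and H2-Q4 rose with AOA alone while H2-T24 rose with HT-DNA alone.

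Outside the immunoproteasome, all 3 constitutive catalytic subunits and 4 of 5 genes for proteasome activators and assembly (Psme1, Psme2, Psme3 and Pomp) were higher with HT-DNA, while Psme4 was lower, against 24.2% of all tested genes higher and 24% lower. Psme1 and Psme2, whose proteins form the PA28 cap that works with the immunoproteasome, rose by 0.36 and 0.44 on the log2 scale. With the trend removed they were at -0.04 and 0.07 and were not called, nor was Psme4 at -0.08. Psme3 (0.49), Pomp (0.38) and 1 of the constitutive subunits (Psmb7, 0.24) remained higher, against 22.6% of all tested genes. With HT-DNA+AOA against HT-DNA 1 of these 8 genes was called as fitted, Psme4, which was lower by 0.32. With the trend removed Psme4 was again lower (-0.54) and Psme2 was higher (0.18), against 26.6% and 25.9% of all tested genes. Of 7 other genes of peptide loading and trimming, 4 were higher in that comparison (22.8% of all tested genes), among them the lectin chaperone Canx (0.31), the oxidoreductase Pdia3 (0.19) and the peptide-trimming enzyme Erap1 (0.39), and the chaperone Calr was lower by 0.18. Of these, Canx (0.15), Erap1 (0.20) and Calr (-0.22) were still called with the trend removed, and Pdia3 (0.05) was not. Of 7 class II pathway genes 3 could be tested. The invariant chain Cd74 rose by 0.75 with AOA, where no other was called, and by 1.15 with HT-DNA+AOA against HT-DNA. In the latter comparison 1 of the 3 was higher and 1 lower, against 22.8% and 22.7% of all tested genes. The lower gene was H2-DMa, at means of 6.99 CPM with HT-DNA and 4.59 with HT-DNA+AOA. It was still called lower with the trend removed (-0.37).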

How the data were processed

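Gene counts of 18 L929 libraries were analysed, 3 independent cultures in each of 6 groups given by the labels. The authors deposited estimated counts per gene, 11.6% of them not whole, beside group means that were not used. The aligner, counter, genome build and test of the RNA-seq data are not given in the sources used here. The counts were rounded to whole numbers and fitted in R 4.3.3 with edgeR 4.0.16 (TMM scaling, filterByExpr with a minimum count of 10 and a minimum total of 15, 1 model over all groups, quasi-likelihood F-test). P-values are two-sided and Benjamini-Hochberg adjusted over all 14263 genes tested, with a threshold of 0.05. Standard errors are the absolute log2 fold change divided by the square root of F, and correlations use log2 CPM with a prior count of 2. The length and GC trend of each library was estimated over the genes with a length in GENCODE vM21 by loess (span 0.3) and entered as an offset, an alternative chosen after the data were seen and tested on simulated data. Alternatives were DESeq2 1.42.0, other scalings and filters, only the libraries compared, a replicate block and each library left out. Libraries held 17901605 to 24057343 counts, which cover counting error only. The members and all gene lists were chosen with earlier results of these data known. Named genes were all 10 members, the constitutive subunits, Irf1, Ifnb1, Ciita, the called genes of each list with the largest changes and the nearest genes by correlation; the other genes named from these lists were chosen after their values were seen. Promoter sequences came from RefSeq (GRCm38.p6), read with Python 3.11.15. The values of 1 listed regulator are not reported here.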

Additional observations from a re-analysis of the deposited data

Results flagged for a closer look

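The AOA effect on Nlrc5 differed between cells with and without HT-DNA by 0.73 ± 0.18 on the log2 scale (edgeR interaction test, adjusted p = 0.0124), which is what marked it for a closer look. Nlrc5 rose 2.25-fold with AOA in HT-DNA cells and 1.36-fold without HT-DNA. The difference was 0.53 to 0.87 when 1 library was left out, and 0.58 with the length and GC trend removed. In a model of only the 12 libraries compared it was 0.72 and missed the threshold, and edgeR called 0 members there (2 at an unadjusted p under 0.05).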

How the results depend on the processing

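The number of members called as fitted was 9 (HT-DNA against Mock), 4 (AOA against Mock), 7 (AOA+Asp against AOA), 0 (AOA+Asp against Mock), 5 (HT-DNA+AOA against HT-DNA), 8 (HT-DNA+AOA+Asp against HT-DNA+AOA), 9 (HT-DNA+AOA+Asp against HT-DNA) and 1 (the interaction). DESeq2 gave the same counts, as did the replicate block. Whether replicate numbers pair the samples could not be decided from the correlations. Of same-numbered pairs 13 of 45 correlated above 0.1 (median r 0.0147), against 16 of 90 differently numbered pairs (median r -0.00194). Of the 18 libraries, 9 correlated best with their own number. Library totals gave 2 for AOA against Mock. No filter gave 2 for the interaction. Models of only the libraries compared gave 3 for AOA+Asp against Mock, 2 for HT-DNA+AOA against HT-DNA and 0 for the interaction (2 at an unadjusted p under 0.05, edgeR). Removing the length and GC trend, chosen after seeing the data, gave 2 for HT-DNA+AOA+Asp against HT-DNA and 4 for the interaction. It also gave 5 higher and 1 lower for HT-DNA against Mock, 5 for AOA against Mock and 6 for AOA+Asp against AOA. For HT-DNA+AOA against HT-DNA it gave 7. The counts of 0 and 8 stayed the same, although Tap2 replaced B2m among the 8. Requiring an absolute log2 fold change of 1 left 1 member in HT-DNA+AOA against HT-DNA, 1 in HT-DNA+AOA+Asp against HT-DNA+AOA and 0 elsewhere. The causes were not tested. Leaving out 1 library gave 8 to 9, 3 to 4, 5 to 7, 0 to 0, 3 to 8, 8 to 10, 8 to 9 and 1 to 5 members in the order above.

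Of 1180 alternative values for single members and counts, 1073 kept their direction and side of the threshold and 25 changed sign. Library totals turned B2m (-0.0281), Tapbp (-0.0658) and Psmb8 (-0.0584) in AOA against Mock and Tap2 (0.0766) in AOA+Asp against AOA. Removing the trend turned Psmb9 (-0.0769) in HT-DNA against Mock, and B2m (-0.0444), Tap2 (0.0291) and Psmb8 (-0.0095) in AOA against Mock. It also turned Tap2 (0.0244) in AOA+Asp against AOA, H2-K1 (0.0393), Tap2 (0.0534) and Psmb10 (0.0531) in AOA+Asp against Mock, H2-K1 (0.0107) in HT-DNA+AOA+Asp against HT-DNA and H2-K1 (0.0592) in the interaction. Leaving out 1 library gave Tap2 a range of -0.0553 to 0.0675 in AOA+Asp against AOA and of -0.0978 to 0.0243 in AOA+Asp against Mock, where Psmb10 ran from -0.172 to 0.011. Psmb8 ran from -0.002 to 0.1218 in AOA against Mock. In HT-DNA+AOA against HT-DNA, H2-D1 ran from -0.0135 to 0.3054 and Psmb8 from -0.0099 to 0.2679, and in the interaction Psmb8 ran from -0.0829 to 0.1951 and Psmb9 from -0.2026 to 0.226, with the lowest value of each without HT-DNA+AOA replicate 3. Among these, H2-K1 in HT-DNA+AOA+Asp against HT-DNA was called as fitted. As fitted, the median of all genes was -0.0076 (HT-DNA against Mock), 0.015 (AOA against Mock) and 0.0059 (the interaction). Scaling by library totals gave medians of -0.118, -0.116 and 0.0993. The share of called genes that were higher then moved from 50.2% to 35.2%, from 49.1% to 32.1% and from 46.7% to 64.5%. It moved from 50.7% to 62.2% in AOA+Asp against AOA, from 39% to 20.9% in AOA+Asp against Mock and from 49.8% to 62.2% in HT-DNA+AOA+Asp against HT-DNA+AOA.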
